A study of Homo sapiens with 4 samples.

Results

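The 10 regulators of the integrated stress response described here are the transcription factors ATF4, ATF3, ATF5 and DDIT3 (which encodes CHOP), the stress-induced proteins DDIT4, TRIB3, CHAC1, NUPR1 and SESN2, and the secreted glycoprotein STC2. They were chosen by gene name, with earlier results of these data known. Their RNA was measured in MDA-MB-231, a triple-negative human breast cancer cell line, and in MDA-MB-231-LM2 (LM2), a subline of it that is labelled as highly metastatic to the lung. The 10 genes had 24 transcripts among the 65423 listed, and all 10 belonged to the 15440 named genes whose mean over both cell lines was at least 50 counts. None passed that minimum through 1 line alone, since the lowest count of a regulator was 57 (STC2 in MDA-MB-231). Each gene is given by its transcript of highest mean count. The study set the parental line against the more metastatic subline to find RNAs whose level differs between them. By the labels there are 4 samples, 2 per line, with no further treatment, but only 1 column of values was deposited for each line. No source used here says whether that column is a single library or a sum over the 2 samples. MDA-MB-231 was grown in Leibovitz L-15 medium in air and LM2 in DMEM with added CO2, both with 10% FBS, so effects of the cell line, the medium and the gas cannot be told apart.

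The integrated stress response is a shared reply to several stresses. The kinases PERK, GCN2, PKR and HRI each phosphorylate the translation factor eIF2alpha when unfolded protein, amino acid shortage, viral RNA or heme shortage is sensed. General translation then falls, while the mRNA of ATF4 is translated more, because of upstream open reading frames in its leader. ATF4 protein, a bZIP transcription factor, pairs with C/EBP proteins at C/EBP-ATF response elements (CARE) and switches on genes of amino acid supply, further transcription factors such as CHOP and ATF3, and further proteins such as TRIB3, which feeds back on ATF4, and CHAC1. Since ATF4 is largely controlled at translation, RNA levels such as those given here do not measure its protein.

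Promoter windows of the regulators were searched for the letters of 3 elements on both strands, TGATGNAA for CARE, TGACGTCA for the cAMP response element (CRE, bound by factors of the CREB and ATF families), and, for the endoplasmic reticulum stress element (ERSE, bound by ATF6), CCAAT and CCACG with 9 bases of any kind between them. The windows, from RefSeq on GRCh38.p14, run from 250 bases before to 50 bases after a transcription start, and 9 of the 10 regulators had at least 1. NUPR1 had none. CARE letters were found in 2 of these 9 genes, ATF3 and CHAC1, against 4.46% of all 27305 genes with a window and 2.70% of the 11214 among the named genes with at least 50 counts. CRE letters were found in 0 of the 9 (2.25% of all genes) and ERSE letters in 0 of the 9 (0.0916%). The 250 bases before the start are printed 5′ to 3′ along the strand of the gene for ATF3 and CHAC1, which hold the letters of CARE, and for ATF4 and DDIT3, the most abundant transcription factors of the group, which hold none of the 3. Capitals mark CARE letters. In ATF3 (chr1:212565157-212565406, plus strand, the more upstream of its 2 windows) they lie at -191 to -184 from the start and read along the gene. In CHAC1 (chr15:40953221-40953470, plus strand) they lie at -209 to -202 and read TGATGCAA on the other strand. The ATF4 window is chr22:39520309-39520558 on the plus strand and the DDIT3 window chr12:57520515-57520764 on the minus strand. A match is a run of letters and not a shown binding site, and the absence of a match holds for these windows only.
ATF3: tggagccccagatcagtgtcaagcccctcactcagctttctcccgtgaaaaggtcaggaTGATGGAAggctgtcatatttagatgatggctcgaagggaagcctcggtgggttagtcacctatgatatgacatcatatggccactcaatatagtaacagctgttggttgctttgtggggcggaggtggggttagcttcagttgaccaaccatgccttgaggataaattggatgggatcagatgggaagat
CHAC1: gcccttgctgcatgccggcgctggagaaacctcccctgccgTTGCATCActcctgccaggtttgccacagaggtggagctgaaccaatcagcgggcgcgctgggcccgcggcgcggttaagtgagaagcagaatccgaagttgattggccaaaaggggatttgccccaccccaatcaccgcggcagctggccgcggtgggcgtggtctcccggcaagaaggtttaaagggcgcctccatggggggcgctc
ATF4: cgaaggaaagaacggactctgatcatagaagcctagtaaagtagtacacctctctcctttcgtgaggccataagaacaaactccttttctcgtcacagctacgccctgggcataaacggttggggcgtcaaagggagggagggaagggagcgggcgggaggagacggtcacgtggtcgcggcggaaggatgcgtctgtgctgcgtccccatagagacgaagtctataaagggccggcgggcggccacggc
DDIT3: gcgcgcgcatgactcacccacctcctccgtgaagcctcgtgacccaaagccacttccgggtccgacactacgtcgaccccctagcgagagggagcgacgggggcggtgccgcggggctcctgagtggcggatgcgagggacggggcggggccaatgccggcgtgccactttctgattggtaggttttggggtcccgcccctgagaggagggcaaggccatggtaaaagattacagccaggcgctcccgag

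The totals were 130689252 counts for the parental line and 128985870 for LM2. RPKM divides a count by the length of the transcript and by the total of its column. Folds compare the LM2 count with the parental count after scaling to these totals, and each is followed by its exact (Clopper-Pearson) 95% interval, which covers counting error only. With 1 column per cell line the difference has no replicate check and no test was made. Beyond 2-fold (a log2 ratio beyond 1 in either direction) is used as a size, not as a significance. Markers of mesenchymal breast cancer cells were present in both lines, with VIM (vimentin) at 550 RPKM in MDA-MB-231 and 951 RPKM in LM2, and CD44 at 23.0 and 19 RPKM. The hormone receptors ESR1 (2 and 8 counts) and PGR (7 and 2 counts) and the epithelial cadherin CDH1 (13 and 0 counts) were at or near 0. The receptor kinase AXL was at 114 and 85.9 RPKM. Other markers that such cells should hold at low levels were present, with ERBB2 (HER2) at 2966 and 1922 counts, or 4.91 and 3.22 RPKM, and the epithelial marker EPCAM at 361 and 355 counts, or 1.61 and 1.60 RPKM. Of 5 markers of other cells, PTPRC (leukocytes) had 8 and 7 counts and ALB (hepatocytes) 3 and 0 counts. PECAM1 (endothelium) had 48 counts in the parental line and 343 in LM2, and the collagens COL1A1 and COL1A2 (fibroblasts) had 209 and 532 counts and 193 and 22 counts. These markers were low, from 0.0315 to 0.696 RPKM for PECAM1 and the collagens, and their part in the results was not tested. In bulk RNA, fewer cells that make a transcript and less of it per cell cannot be told apart.

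LM2 cells had more RNA of 9 of the 10 regulators than MDA-MB-231 cells, beyond counting error, and the interval of the exception, ATF5, spanned an equal level. Of the 10, 6 were over 2-fold higher in LM2 (NUPR1, SESN2, ATF4, DDIT3, DDIT4 and STC2), while 0 were over 2-fold lower. The shares among all 15440 named genes with at least 50 counts were 4.58% for over 2-fold higher and 6.9% for over 2-fold lower, and 49.6% were higher by any amount. For 5 of the 6 the whole counting interval lay beyond 2-fold, as it did for 3.21% of the named genes, and the exception was STC2. The median log2 ratio of the 10 was 1.10, and 1.04 without NUPR1, against -0.00 for all named genes. Since the regulators were chosen with results known, these shares describe them and are no test. The remaining regulators were TRIB3, CHAC1, ATF3 and ATF5, between 1.06-fold and 1.53-fold. Of all named genes, 26.6% were over 1.2-fold higher, and 9 of the 10 regulators were, ATF5 being the exception.

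**Figure D1:**
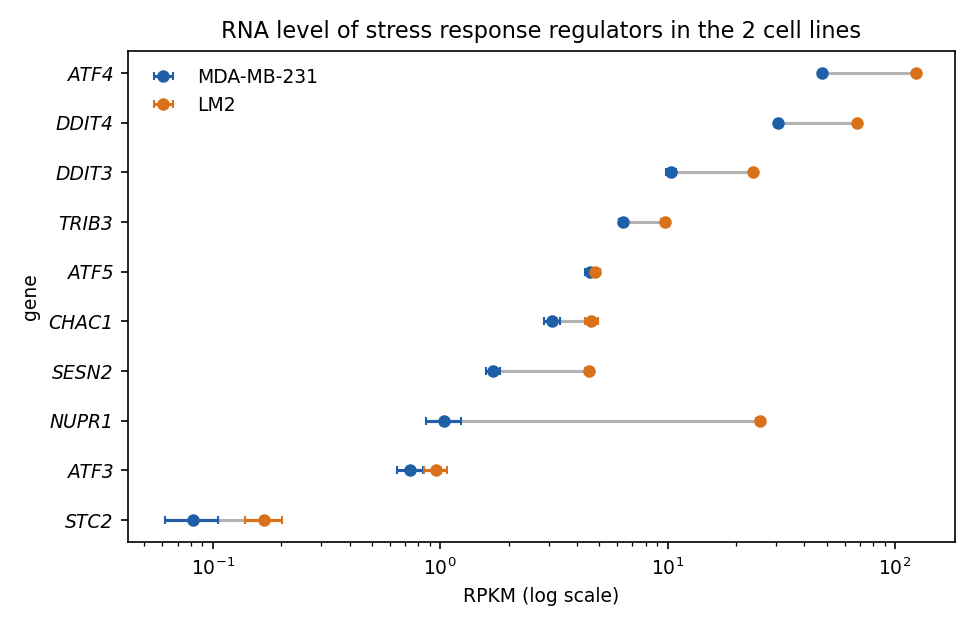
RNA level of each of the 10 regulators in MDA-MB-231 (blue) and LM2 (orange), in RPKM on a log scale, 1 column per cell line, with bars for the exact 95% counting interval. The LM2 point lies to the right of the MDA-MB-231 point in every row, from ATF5 (4.55 and 4.81 RPKM) to NUPR1 (1.04 and 25.5 RPKM).

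Of the 4 transcription factors, ATF4 and DDIT3 were over 2-fold higher in LM2, and ATF3 and ATF5 were not. ATF4, the main transcriptional effector of the response, had 12655 counts in the parental line and 32299 in LM2, or 47.9 and 124 RPKM. That is 2.59-fold higher in LM2 (2.53 to 2.64), and ATF4 went from place 620 to place 291 among the named genes ordered by RPKM. Its other transcript, NM_182810, had 11271 and 29302 counts and a ratio of 2.63 (2.58 to 2.69). The 2 transcripts share most of their bases and so their reads, and they are not independent measurements. ATF4 also has processed pseudogenes, and the sources used here do not say how reads matching several places were counted.

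DDIT3 encodes CHOP, a bZIP factor that pairs with C/EBP proteins and is tied to cell death under lasting stress. It had 1595 counts in the parental line and 3610 in LM2, or 10.4 and 23.8 RPKM, which is 2.29-fold higher in LM2 (2.16 to 2.43). Its 6 transcripts had ratios between 2.29 and 2.32. In GENCODE release 29, 355 of the 1307 exon bases of DDIT3 (27.2%) lie under exons of the methionyl-tRNA synthetase gene MARS1 on the opposite strand, although only 68 of them (5.20%) lie under its protein-coding transcripts. Smaller overlaps are with MBD6 (58 bases) and with ENSG00000285133 (105 bases). MARS1 had 6188 and 14908 counts, a ratio of 2.44 (2.37 to 2.51). The sources used here do not say whether counting used the strand, so reads of the 2 genes cannot be told apart where their exons overlap.

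ATF3, a bZIP factor induced by ATF4 and by other stress signals, had 230 counts in the parental line and 295 in LM2, or 0.737 and 0.958 RPKM. It was 1.30-fold higher (1.09 to 1.55), and 19.4% of named genes had a higher ratio. Its 6 transcripts spread more than those of any other regulator, from 1.25-fold for NM_001206488 (230 and 284 counts) to 1.5-fold for NM_001206486 (174 and 257 counts, 1.23 to 1.82). These intervals overlap. ATF5, a factor related to ATF4 and linked to mitochondrial stress, was nearly level, with 1354 and 1411 counts, or 4.55 and 4.81 RPKM. The interval of its ratio, 1.06, spans 1 (0.979 to 1.14), and its second transcript, NM_001193646, had a ratio of 1.02 (0.943 to 1.10). Of the 2954 exon bases of ATF5, 626 (21.2%) lie under exons of the nucleoporin gene NUP62 on the other strand, which had 6862 and 7821 counts.

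The highest ratio of the 10 belonged to NUPR1, a small chromatin-associated protein induced by ATF4. It had 124 counts in the parental line and 2997 in LM2, and 0.376% of named genes had a higher ratio. Its second transcript, NM_012385, had 120 and 2859 counts and a ratio of 24.1 (20.1 to 29.2). Per length, NUPR1 RNA stood at 2.17% of the ATF4 level in MDA-MB-231 and at 20.6% of it in LM2. None of its exon bases lies under another gene in GENCODE release 29, and its paralog NUPR2 had 0 counts in both cell lines.

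DDIT4 and SESN2, which both restrain the growth kinase complex mTORC1, were over 2-fold higher in LM2. DDIT4 encodes REDD1, which acts through the TSC complex, and had 6995 counts in the parental line and 15389 in LM2, or 30.6 and 68.1 RPKM, a ratio of 2.23 (2.17 to 2.29). The antisense gene DDIT4-AS1 lies under 847 of its 2058 exon bases (41.2%) and had 3494 and 7575 counts, and these cannot be told apart from DDIT4 where the exons overlap. SESN2 (sestrin 2), a leucine sensor that acts on GATOR2, had 789 and 2056 counts, or 1.71 and 4.52 RPKM, a ratio of 2.64 (2.43 to 2.87). Its exons lie under no other gene.

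TRIB3, a pseudokinase that binds ATF4 and CHOP and limits their action, had 2042 counts in the parental line and 3074 in LM2, or 6.37 and 9.72 RPKM. Its ratio was 1.53 (1.44 to 1.61), and 10.1% of named genes had a higher one. CHAC1, an enzyme that breaks down glutathione, had 632 and 928 counts, or 3.10 and 4.61 RPKM, a ratio of 1.49 (1.34 to 1.65). Its second transcript, NM_001142776, had 565 and 820 counts and a ratio of 1.47 (1.32 to 1.64). TRIB3 and CHAC1 were therefore both higher in LM2 beyond counting error and under 2-fold, and their intervals overlapped each other. STC2 (stanniocalcin 2) was the least abundant, with 57 counts in the parental line and 116 in LM2, or 0.0816 and 0.168 RPKM. Its ratio of 2.06 (1.49 to 2.88) has an interval that reaches below 2-fold, and with the totals of NM_ transcripts as the scale its log2 ratio was 0.99, under the 2-fold line.

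**Figure D2:**
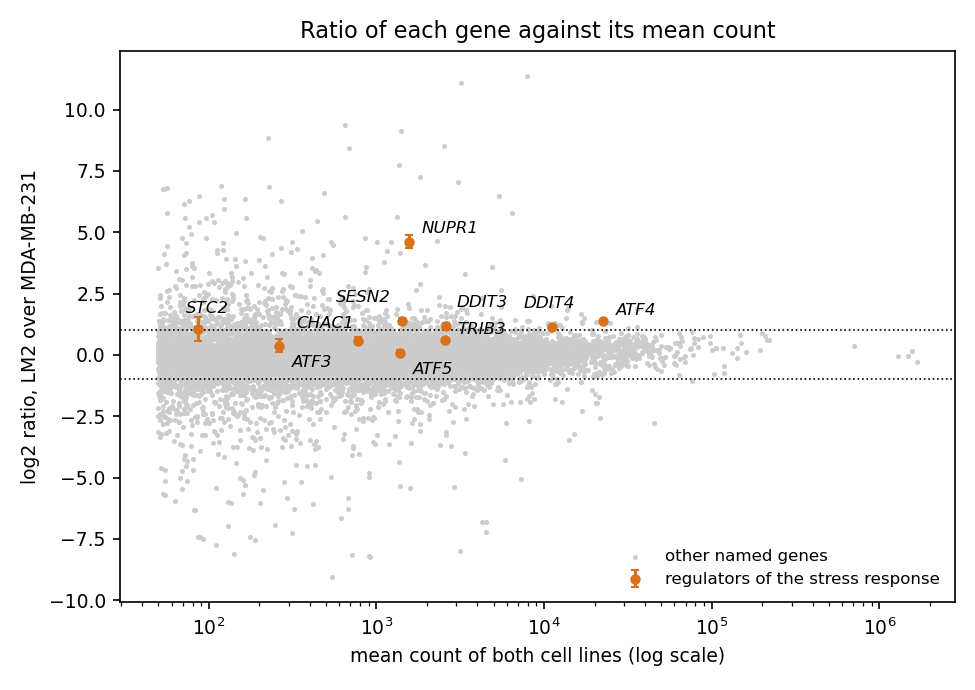
Log2 ratio of LM2 over MDA-MB-231 against the mean count of both cell lines on a log scale, for the 15440 named genes with at least 50 counts (grey) and the 10 regulators (orange, with exact 95% counting intervals). Dotted lines mark 2-fold in each direction, and NUPR1 (4.61), SESN2 (1.40), ATF4 (1.37), DDIT3 (1.2), DDIT4 (1.16) and STC2 (1.04) lie above the upper one.

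The order of the regulators by RPKM was ATF4, DDIT4, DDIT3, TRIB3, ATF5, CHAC1, SESN2, NUPR1, ATF3 and STC2 in MDA-MB-231, where no neighbours in the order had overlapping counting intervals. In LM2 the order was ATF4, DDIT4, NUPR1, DDIT3, TRIB3, ATF5, CHAC1, SESN2, ATF3 and STC2. There, ATF5 (4.81 RPKM), CHAC1 (4.61 RPKM) and SESN2 (4.52 RPKM) could not be ordered, since the intervals of ATF5 and CHAC1 and of CHAC1 and SESN2 overlapped. NUPR1 moved from place 8 to place 3, and beyond these 3 genes no other neighbours in the LM2 order overlapped. Summed over the 10, the level was 106 RPKM in MDA-MB-231 and 266 RPKM in LM2. ATF4 made up 45.0% of that sum in MDA-MB-231 and 46.6% in LM2.

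Since neighbouring genes can share a ratio, each regulator was set beside the 30 nearest named protein-coding genes, 15 on each side. The medians of these neighbours were between -0.50 and 0.65 on the log2 scale. NUPR1 (4.61, neighbours 0.14), SESN2 (1.40, neighbours 0.04) and ATF4 (1.37, neighbours 0.15) lay far above their neighbours. DDIT3 had the highest neighbourhood, with a median of 0.65 beside its own 1.2, and DDIT4 had 0.38 beside 1.16. TRIB3, near the end of its chromosome with 19 neighbours, had the lowest, at -0.50 beside its own 0.61. STC2 (neighbours 0.17), ATF3 (0.11) and CHAC1 (0.02) had neighbours near 0, and ATF5 (0.08) stood close to its own (-0.01). The part of the neighbourhood in these ratios was not tested.

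**Figure D3:**
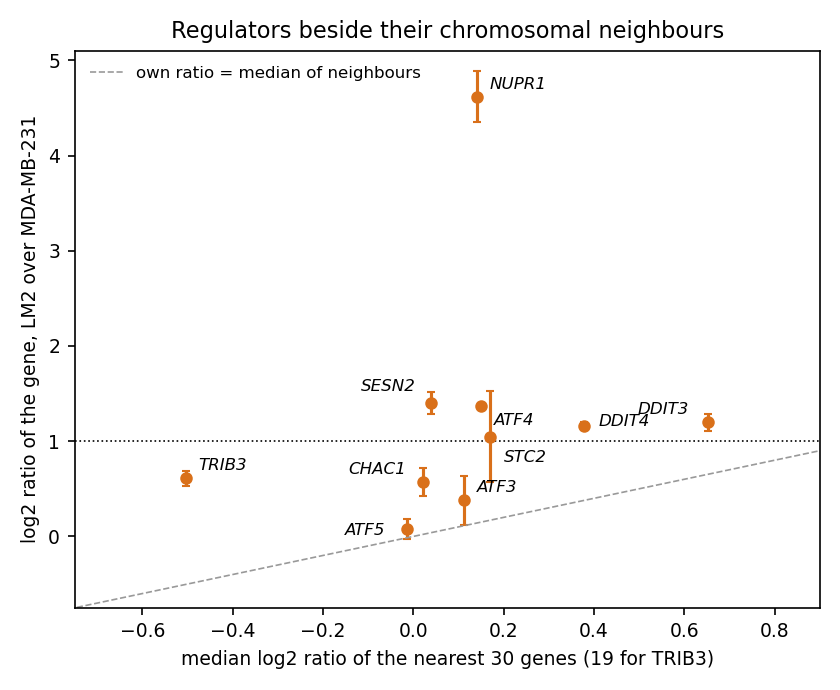
Log2 ratio of each regulator (LM2 over MDA-MB-231, with exact 95% counting interval) against the median log2 ratio of the 30 nearest named protein-coding genes, 19 for TRIB3. The dashed line marks equal values and the dotted line 2-fold. ATF5 (0.08 against -0.01) lies nearest the dashed line, and NUPR1 (4.61 against 0.14) farthest above it.

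The list around the phosphorylation of eIF2alpha holds its kinases, phosphatase subunits, eIF2alpha itself and a kinase inhibitor. Of the 8 genes of this list, 0 were over 2-fold higher while 0 were over 2-fold lower, and the median log2 ratio was 0.00. The shares among all named genes were 4.58% and 6.9%, so 0 is close to them in a list of 8. The kinase genes were level or lower in LM2. EIF2AK3 (PERK, the kinase of endoplasmic reticulum stress) had 1820 counts in the parental line and 934 in LM2, 1.92-fold lower (1.78 to 2.08). EIF2AK4 (GCN2, the sensor of uncharged tRNA) had 5800 and 3643 counts, 1.57-fold lower (1.51 to 1.64), and EIF2AK1 (HRI, which senses heme) was 1.22-fold lower (1.17 to 1.27). EIF2AK2 (PKR, which binds double-stranded RNA) was level at a ratio of 1.0 (0.938 to 1.07), as was DNAJC3, an inhibitor of PKR and PERK, at 1.0 (0.964 to 1.04). The median log2 ratio of the neighbours was -0.35 for EIF2AK3, -0.05 for EIF2AK4, -0.37 for EIF2AK1 and -0.31 for EIF2AK2. EIF2S1, eIF2alpha itself, was 1.16-fold higher (1.13 to 1.2). The phosphatase subunits PPP1R15A (GADD34, 1.18-fold) and PPP1R15B (CReP, 1.21-fold) were also slightly higher. These are RNA levels, and the phosphorylation of eIF2alpha was not measured.

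Of the 7 genes of the other eIF2 subunits and of its exchange factor eIF2B, 0 were over 2-fold higher while 1 was over 2-fold lower. EIF2S3, the gamma subunit of eIF2, had 11872 counts in the parental line and 4778 in LM2, 2.45-fold lower (2.37 to 2.54), and the median log2 ratio of its neighbours was -0.78. EIF2B4 was 1.33-fold lower (1.23 to 1.43), while EIF2B2 (1.42-fold) and EIF2S2 (1.14-fold) were higher. The 8 triggers upstream of the kinases all lay within 2-fold, from GCN1, the ribosome-bound activator of GCN2 (1.15-fold lower, 1.13 to 1.18), and DELE1, a messenger of mitochondrial stress (1.14-fold lower, 1.07 to 1.2), to the adaptor NCK1 (1.19-fold higher) and the mitochondrial protease OMA1 (1.21-fold higher). With 4.58% of all named genes over 2-fold higher and 6.9% over 2-fold lower, 0 of 8 is close to those shares.

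Most paralogs of the regulators were higher in LM2, though their median was below that of the regulators. Of 14, 13 had at least 50 counts, and of these 1 was over 2-fold higher and 0 were over 2-fold lower. That is close to the shares of all named genes, 4.58% and 6.9%. Their median log2 ratio was 0.29, against 1.10 for the regulators. Of the 13, 11 were higher by any amount and 5 over 1.5-fold higher, against 49.6% and 10.7% of all named genes. STC1, the paralog of STC2, had 3213 counts in the parental line and 7830 in LM2, a ratio of 2.47 (2.37 to 2.57), and it was far more abundant than STC2, at 6.34 and 15.7 RPKM. JDP2, the closest relative of ATF3, was 1.68-fold higher (1.52 to 1.86). The TRIB3 relatives TRIB2 (1.62-fold) and TRIB1 (1.57-fold) had ratios close to that of TRIB3. Of the sestrins, SESN1 was at 1.03 (0.892 to 1.19) and SESN3 at 0.799 (0.738 to 0.865), unlike SESN2. DDIT4L (1.21, 0.982 to 1.49) was below DDIT4, and the interval of CHAC2 (1.22, 1.10 to 1.36) overlapped that of CHAC1. Among the other members of the ATF and CREB family, ATF1 was at 1.64, ATF7 at 1.26, ATF2 at 1.10, ATF6 at 1.05 and CREB1 at 0.892. ATF7 (log2 ratio 0.34, neighbours 0.58), DDIT4L (0.28, neighbours 0.34), ATF6 (0.07, neighbours 0.09) and SESN1 (0.04, neighbours 0.09) lay below their neighbours. Of the other higher paralogs, ATF1 had neighbours at 0.39, and STC1, JDP2, TRIB1, TRIB2, CHAC2 and ATF2 between -0.35 and 0.05.

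Of 14 bZIP factors that can pair with ATF4, CHOP or ATF3, 2 were over 2-fold higher while 0 were over 2-fold lower, with a median log2 ratio of 0.24. The matching shares of all named genes were 4.58% and 6.9%. CEBPB, a C/EBP factor that pairs with ATF4 and with CHOP, had 2047 and 6349 counts, or 7.43 and 23.4 RPKM, a ratio of 3.14 (2.99 to 3.30). MAF had 11 and 117 counts, a ratio of 10.8 (5.81 to 22.2) at a level of 0.132 RPKM in LM2. MAF passed the minimum of 50 counts only through LM2, where it was higher, so CEBPB is the 1 call that does not rest on that filter. MAFK was 1.83-fold lower (1.72 to 1.94) and CEBPD 1.36-fold lower (1.22 to 1.53).

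Targets of ATF4 were set beside the regulators in 4 lists chosen by role. Of 11 genes of amino acid synthesis, 4 were over 2-fold higher while 0 were over 2-fold lower (median log2 ratio 0.91). These were PHGDH and PSAT1, which make serine from a glycolytic intermediate, and ASNS (asparagine synthetase, 4.0-fold) and SHMT2 (mitochondrial serine hydroxymethyltransferase, 3.61-fold), the last pair named after their values were seen. The neighbours of SHMT2 had a median log2 ratio of 0.57, and those of PHGDH, PSAT1 and ASNS 0.02, 0.05 and 0.01. PHGDH had 177 and 4398 counts, and PSAT1 was 4.95-fold higher (4.67 to 5.24). The proline pathway gene ALDH18A1 was 1.16-fold lower (1.12 to 1.21), and ALDH1L2, a mitochondrial folate enzyme, had 55 and 47 counts. Of 10 amino acid transporters, 3 were over 2-fold higher and 0 lower (median 0.46). SLC7A11, the cystine importer, was 3.99-fold higher (3.86 to 4.12), its partner chain SLC3A2 2.54-fold (2.48 to 2.61) and the glutamine carrier SLC38A1, named after its value was seen, 2.47-fold. The medians of their neighbours were 0.13, 0.17 and 0.48. SLC7A5, the other partner of SLC3A2 and the carrier of leucine, was level at 1.01 (0.984 to 1.04), and SLC1A4 was 1.60-fold lower (1.46 to 1.74).

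Cytosolic aminoacyl-tRNA synthetases load tRNAs with amino acids. The counts among 20 of them were close to the shares of all named genes, 4.58% over 2-fold higher and 6.9% over 2-fold lower. Of the 20, 2 were over 2-fold higher and 0 lower (median log2 ratio 0.37). These were MARS1, which had a neighbourhood median of 0.61, and CARS1 (2.32-fold, 2.23 to 2.42), which had one of 0.34. NARS1 was 1.23-fold lower (1.19 to 1.27) in a neighbourhood with a median of -0.81. VARS1 was 1.57-fold lower (1.44 to 1.71) with neighbours at -0.65. Its row has a listed length of 26135 bases, and its 0.408 and 0.260 RPKM were the lowest levels among the 20. CARE letters lay in the promoter windows of 7 of the 16 synthetases with a window. Of these, NARS1 was lower in LM2. The others were higher, namely MARS1, CARS1, AARS1 (1.96-fold), GARS1 (1.49-fold), IARS1 (1.48-fold) and TARS1 (1.30-fold). AARS1, GARS1, IARS1 and TARS1 were named after their values were seen. Whether the letters go with the ratios was not tested. Of 16 other targets, 5 were over 2-fold higher and 0 lower (median 0.79). ADM2, a peptide hormone, had 60 and 272 counts, a ratio of 4.59 (3.46 to 6.18), and NDRG1, a stress-responsive protein, was 2.31-fold higher (2.25 to 2.38). The remaining 3, named after their values were seen, were XPOT (2.15-fold, 2.10 to 2.21), VLDLR (2.04-fold, 1.82 to 2.29) and SLC6A6 (2.0-fold, 1.94 to 2.07), the last pair with intervals that reach below 2-fold. Neighbours had a median of 0.54 for XPOT, 0.33 for SLC6A6, 0.09 for ADM2, -0.07 for NDRG1 and -0.15 for VLDLR. The count of 5 was 3 with the totals of NM_ transcripts or log2(RPKM + 0.1), and 2 with log2(RPKM + 1). CDKN1A, the cell cycle inhibitor p21, was 1.68-fold lower (1.61 to 1.75) with neighbours at -0.81, and GADD45A was 1.08-fold lower (1.03 to 1.14).

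**Figure D4:**
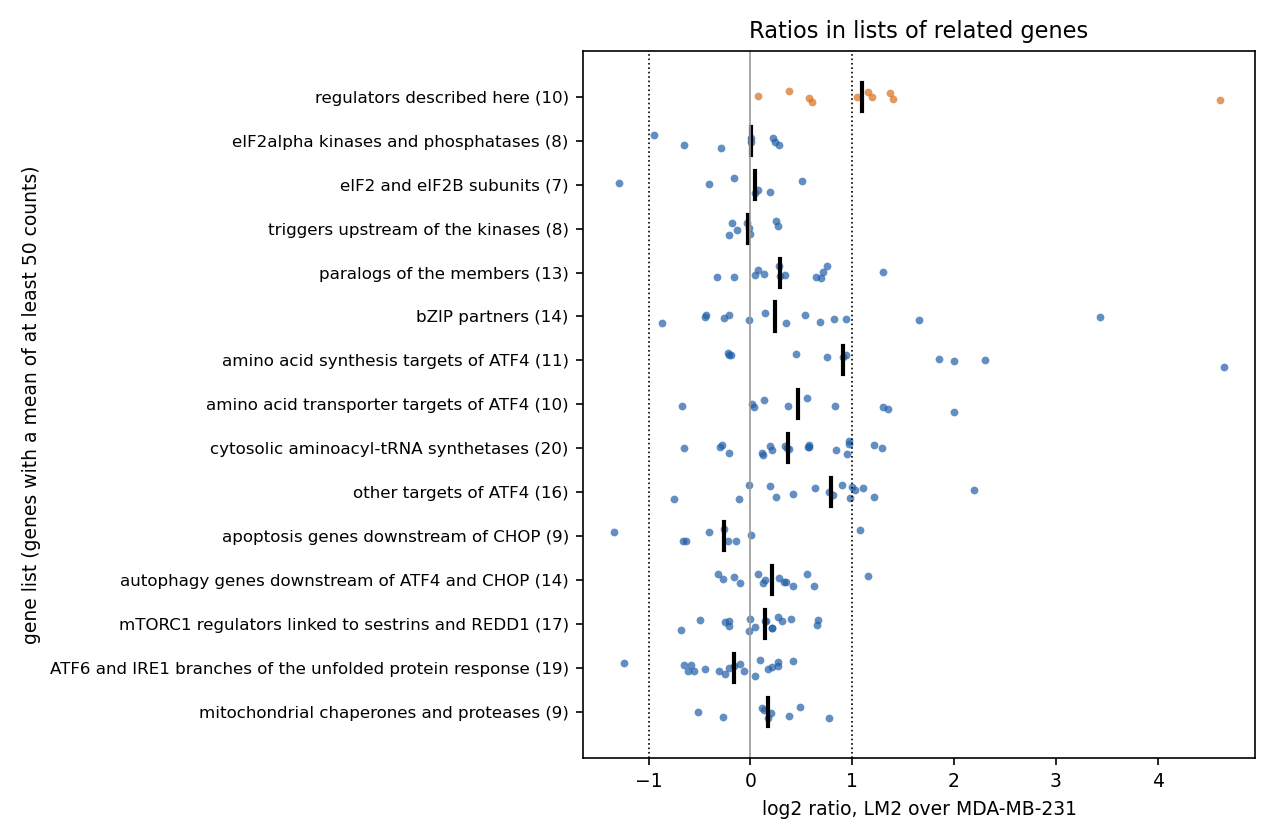
Log2 ratio of LM2 over MDA-MB-231 for the 10 regulators (orange) and for the genes of 14 related lists (blue), with the number of genes that had at least 50 counts in parentheses and a black bar at each median. Dotted lines mark 2-fold. The regulators (median 1.10) and the amino acid synthesis targets (0.91) have the highest medians, and the apoptosis genes downstream of CHOP (-0.26) the lowest.

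The apoptosis genes downstream of CHOP were more often lower than higher in LM2, 7 against 2 of them, where 49.6% of all named genes were higher. This tally holds BCL2, which restrains apoptosis, beside genes that promote it. It also holds genes whose intervals spanned an equal level, TNFRSF10B as higher and BBC3 (0.857, 0.718 to 1.02), named after its value was seen, as lower. Of 9, 1 was over 2-fold higher and 1 over 2-fold lower, and the median log2 ratio was -0.26. In a list of 9 these counts are close to the shares of all named genes, 4.58% and 6.9%. CASP4, an inflammatory caspase, had 1787 and 3706 counts, a ratio of 2.10 (1.99 to 2.22). TNFRSF10B, the death receptor DR5, was level at 1.0 (0.977 to 1.03). PMAIP1 (NOXA) was 2.53-fold lower (2.41 to 2.67) with neighbours at -0.77, and BCL2L11 (BIM) was 1.58-fold lower (1.38 to 1.82). Both encode proteins that promote apoptosis. BCL2, which restrains it and was named after its value was seen, was 1.55-fold lower (1.39 to 1.73) with neighbours at -0.71. Of 14 autophagy genes downstream of ATF4 and CHOP, 1 was over 2-fold higher and 0 lower (median 0.21), again close to those shares. SQSTM1, the autophagy receptor p62, had 22595 and 49535 counts, a ratio of 2.22 (2.19 to 2.26), and GABARAPL1 was 1.55-fold higher (1.43 to 1.66). NBR1 (1.2-fold lower, 1.16 to 1.24) and ATG16L1 (1.25-fold lower, 1.17 to 1.32) were lower.

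The remaining branches of the unfolded protein response run through ATF6 and IRE1 and raise chaperones of the endoplasmic reticulum. In their list 7 genes were higher in LM2 and 12 lower, where 49.6% of all named genes were higher. Of 19 genes, 0 were over 2-fold higher while 1 was over 2-fold lower, with a median log2 ratio of -0.16. HERPUD1 was 1.34-fold higher (1.25 to 1.43) and the co-chaperone DNAJB11 1.21-fold (1.15 to 1.27). CALR (calreticulin) had 61158 and 38501 counts, 1.57-fold lower (1.55 to 1.59). PDIA6, PDIA4, HSP90B1, HYOU1 and HSPA5, named after their values were seen, were also lower. They ranged from 1.53-fold (PDIA6) to 1.19-fold (HSPA5), and the medians of their neighbours from -0.31 to -0.15. MBTPS2, the protease that frees ATF6, had 847 and 353 counts, 2.37-fold lower (2.09 to 2.69), with neighbours at -0.84, and with log2(RPKM + 1) it was no longer beyond 2-fold. ERSE letters lay in the windows of 6 of the 20 genes of this list, against 0 of the 9 regulators with a window. Over the 14 lists, 174 genes had at least 50 counts, of which 19 had over 2-fold more RNA in LM2 and 3 over 2-fold less. For all 15440 named genes with as many counts, the matching shares were 4.58% for more RNA in LM2 and 6.9% for less. Since the lists were chosen with earlier results known, setting their counts beside these shares is no test. The regulators, by comparison, had 6 of 10 over 2-fold higher, and whether the lists differ from one another was not tested.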

How the data were processed

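Total RNA of both cell lines was sequenced after library preparation by Illumina protocols. Per the submitters' processing notes, bcl2fastq and TopHat2 (version 2.0.13) were used with hg19 (GRCh37). The sources used here do not name the counter, the annotation or whether strand was used. The authors deposited whole read counts per transcript, which were used unchanged, and RPKM values, which equal the count over the listed length and the column total to a relative difference of at most 4.98e-06. Reads of overlapping transcripts can enter more than 1 row: of the 31462 transcripts that averaged 50 counts or more, 3376 shared both counts with another.

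Ratios were scaled by the column totals, with exact Clopper-Pearson intervals at 95% that cover counting error only. Tests need libraries within each cell line and were not possible. Symbols were paired through the RefSeq table of GRCh38.p14, GENCODE release 29 and current gene names, for 33714 of 34791 NM_, 6795 of 7527 NR_ and 21822 of 23105 ENST transcripts. Coordinates are those of GRCh38.p14, and none were converted.

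The regulators, gene lists, motifs and the rule for named genes were chosen with earlier results of these data known. The text names all 10 regulators, every gene of the lists of eIF2alpha kinases and phosphatases and of paralogs, and the 2 highest and 2 lowest ratios of each other list. Genes outside the rule are marked. The calculation was tested on simulated counts. Alternatives were TMM and upper-quartile factors (edgeR 4.0.16), size factors (DESeq2 1.42.0), totals of NM_ transcripts, other transcripts per gene, pseudocounts of 0.1 and 1 on RPKM, and other minimums and folds. R 4.3.3 served the scaling factors. All else was run in Python 3.11.15 with pandas 2.3.3, numpy 2.4.6 and scipy 1.17.1, and matplotlib 3.10.9 drew the figures.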

Additional observations from a re-analysis of the deposited data

How the results depend on the processing

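No paired analysis was possible because the counts came as 1 column per cell line, although the labels give replicate numbers, and for the same reason no sample could be left out in turn. Under 4 other scalings, 2 other choices of transcript and both pseudocounts, all 80 log2 ratios of the 10 regulators stayed above 0, and the scalings moved them by at most 0.056. With the totals of NM_ transcripts ATF4 was at 1.31 and DDIT4 at 1.10. With log2(RPKM + 1), NUPR1 was at 3.70, SESN2 at 1.02 and STC2 at 0.11, and with log2(RPKM + 0.1) STC2 was at 0.56. The number of regulators over 2-fold higher was 5 with the totals of NM_ transcripts and with either pseudocount, 7 at 1.5-fold and 1 at 3-fold (NUPR1), and 0 were lower under any of these. Their median was 0.88 with a pseudocount of 0.1 and 0.78 with 1. Over the related lists, 42 genes were higher and 15 lower at 1.5-fold, 8 and 0 at 3-fold, and 6 were lower with no minimum count. Over all named genes, 1646 were higher and 2388 lower at 1.5-fold, 328 and 472 at 3-fold, 197 and 273 with log2(RPKM + 1), 1301 and 1847 at a minimum mean of 10 counts, and 3880 and 4334 with no minimum. With the letters TGATGCAA alone for CARE, 1 regulator held them, CHAC1. A pseudocount lowers the ratio of scarce transcripts by construction. Depth limits STC2 and ATF3 most, and the spread between cultures is unknown for every value.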

Other observations

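The mTORC1 pathway, on which SESN2 and DDIT4 act, had no gene beyond 2-fold among 17 of its regulators, and their median log2 ratio was 0.14. In a list of 17, having none is close to the shares of all named genes, 4.58% upward and 6.9% downward. WDR59, a subunit of the GATOR2 complex, was 1.58-fold higher in LM2 (1.39 to 1.80), and so was TXNIP, a partner of REDD1 (1.58-fold, 1.5 to 1.65). CASTOR1, an arginine sensor, had 305 counts in the parental line and 188 in LM2, 1.60-fold lower (1.33 to 1.93), and SEH1L, another GATOR2 subunit, was 1.41-fold lower (1.34 to 1.47). Of 9 mitochondrial chaperones and proteases, which ATF5 is linked to, 0 were beyond 2-fold in either direction and the median was 0.17. That count is likewise close to the shares of all named genes. LONP1, a matrix protease that is also a target of ATF4, had 6897 and 11627 counts, a ratio of 1.71 (1.66 to 1.76), and the chaperone HSPA9 a ratio of 1.40 (1.38 to 1.43). The membrane protease AFG3L2 was 1.43-fold lower (1.37 to 1.48) and SPG7 1.21-fold lower (1.14 to 1.28).

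Of the 82 named genes with at least 50 counts whose promoter window held TGATGCAA on either strand, 9.76% (8 genes) were over 2-fold higher in LM2 while 7.32% (6 genes) were over 2-fold lower, and their median log2 ratio was 0.16. Of the 11132 whose window did not hold it, 4.30% were over 2-fold higher and 6.53% lower, with a median of 0.00. For TGATGNAA the values were 8.25% higher and 5.94% lower among 303 genes, with a median of 0.04. Without it they were 4.23% and 6.55% among 10911 genes, with a median of 0.00. Of the 16 genes with ERSE letters, 0 were beyond 2-fold in either direction, and their median was -0.12. These are shares of 2 columns, and the differences between them were not tested.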
